A study of Homo sapiens with 6 samples.

Results

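The response of HT29 cells to histidine depletion was described across all genes whose mean reached 10 normalized counts over the 2 libraries of histidine-depleted and the 2 libraries of untreated cells. This rule kept 18288 of the 60676 listed genes, and it used the level of a gene but not its change. HT29 is an established human colon adenocarcinoma line, labelled as wild type and as colon tissue. Its cells spent 48 h either in control medium or in medium that lacked histidine or tryptophan, and 2 samples of each were sequenced. Both depleted media carried dialyzed serum, and the histidine-free medium was made on the basis of RPMI, whereas HT29 cells were otherwise grown in DMEM. In other experiments of the study the control to both depletions was complete RPMI, but for the sequenced cells the base of the control is not named, so an effect of the base medium and an effect of histidine cannot be told apart in any difference given here. Whether the replicates came from separate cultures was not stated either, and p-values then measure the spread between these samples, which may be technical.

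Histidine is an essential amino acid that cells take up and load onto its tRNA through histidyl-tRNA synthetase. When an amino acid runs short, uncharged tRNA activates the kinase GCN2, which phosphorylates the initiation factor eIF2alpha, lowers general translation and favours translation of the transcription factor ATF4. ATF4 then raises genes of amino acid synthesis, uptake and tRNA charging, while the kinase complex mTORC1 loses activity at the lysosome. Colon epithelium is known for stem cells driven by WNT signals, absorptive enterocytes, and goblet cells that secrete mucins, and colon adenocarcinoma lines keep parts of these programmes.

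The libraries held 46390819 and 52607332 reads in untreated cells and 64388876 and 57574730 reads after histidine depletion, recovered as whole numbers from the deposited normalized counts. The values are relative to the other genes of a library, so fewer cells of a type and less RNA per cell cannot be told apart, and a change in total RNA per cell cannot be seen. Of the 12 colon epithelial markers, 12 passed the filter on low values, of which 5 were higher and 7 lower after depletion. Over all tested genes 39.1% were higher and 38.2% lower. KRT20, KRT19, KRT8 and CDH1 rose, with log2 fold changes of 1.74, 1.55, 0.78 and 0.49. LGALS4, CDX2, CDH17, KRT18 and VIL1 fell, with log2 fold changes of -1.57, -1.37, -0.58, -0.52 and -0.13. CDX1, a transcription factor of intestinal identity, went from 21.6 and 18.8 normalized counts to 0 in both depleted libraries, and GPA33 from 77.9 and 75.1 to 2.71 and 10.1. EPCAM had 26380.4 and 27949 normalized counts in the untreated and 30632 and 30893 in the depleted libraries. This small increase turned to -0.077 on the log2 scale with quantile normalization. It did not pass without the mean-variance trend (limma adjusted p = 0.0654) or without either depleted replicate. Defining markers of other cell types were low throughout. The 6 mast cell markers reached at most 2.03 normalized counts in any library, with 3 of them at 0 everywhere. The summed level of 8 leukocyte markers was 197 and 229 in untreated and 199.7 and 206 in depleted cells, that of 6 fibroblast markers 70.3 and 71.2 against 35.2 and 40.5, and that of 5 endothelial markers 60.6 and 45.5 against 56.0 and 52.7. Single markers moved within these sums. Of the 3 leukocyte markers that passed the filter, CSF1R rose (6.49 and 5.93 to 35.2 and 41.5, log2 fold change 2.45), ITGAM rose by 0.50 and CD14 had a log2 fold change of -0.96 and fell. Of the 2 endothelial ones VWF rose from 7.57 and 3.95 to 42.5 and 40.5 and PECAM1 fell from 47.6 and 36.6 to 8.13 and 9.12 normalized counts.

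After 48 h without histidine most measured genes differed from untreated cells. Of the 18288 genes, 7149 or 39.1% had higher and 6981 or 38.2% lower normalized counts, together 77.3% (limma on log2(normalized count + 1), Benjamini-Hochberg adjusted p under 0.05). The groups of libraries did not overlap in 14112 of the 14130 called genes, but this holds for 88.1% of all tested genes with 2 libraries against 2. A change of at least 1 on the log2 scale, or 2-fold, was seen for 3002 higher genes (16.4%) and 2947 lower genes (16.1%). Larger increases outnumbered larger decreases, with 962 genes up and 682 down by a log2 fold change of 2 or more and 158 up and 45 down by 4 or more. The median log2 fold change over all tested genes was 0.010, with quartiles of -0.67 and 0.67. With a median standard error of 0.0852, small differences also passed the threshold, and 1561 called genes changed by less than 0.3. Just inside the filter, genes such as PDE1A had a mean of 10.01 normalized counts, and just outside it MKNK1-AS1 had 9.9998.

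**Figure D1:**
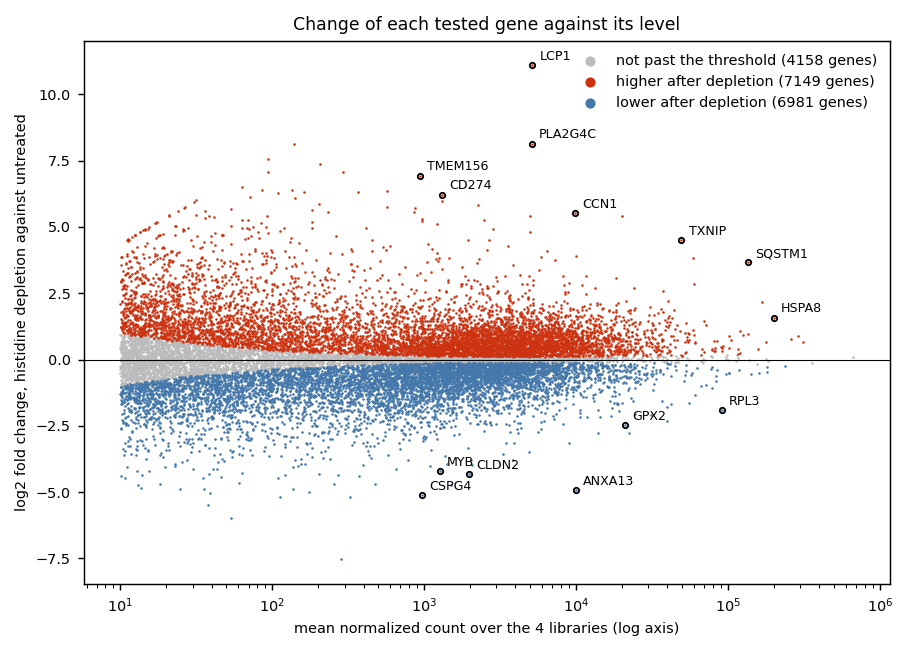
Log2 fold change of each of the 18288 tested genes (histidine depletion against untreated, vertical axis) plotted against its mean normalized count over the 4 libraries (horizontal log axis), with genes past the threshold in red (7149 higher) and blue (6981 lower). The increases reach 11.09 for LCP1, and large increases also occur among strongly expressed genes such as TXNIP and SQSTM1.

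Shares of called genes differed with gene type and level. Of 13196 protein-coding genes 42.3% rose and 41.3% fell, of 2768 long noncoding RNA genes 31.0% rose and 31.9% fell, and of 1978 pseudogenes 30.3% rose and 28.6% fell. Changes of at least 1 on the log2 scale had another order, with 15.7% up and 16.0% down among protein-coding and 20.8% up and 19.6% down among long noncoding RNA genes. Of the 1089 genes that averaged 10000 normalized counts or more, 644 rose and 316 fell, with a median log2 fold change of 0.30. Among the 4719 genes between 100 and 1000 normalized counts, 1562 rose and 2287 fell, with a median of -0.18.

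LCP1, the actin-bundling protein L-plastin that is otherwise typical of leukocytes, had the largest increase of all genes. It had 6.49 and 1.98 normalized counts in the untreated and 10644 and 9924 in the depleted libraries (log2 fold change 11.09, SE 0.227, limma adjusted p = 2.03e-22; chromosome 13, 46125920 to 46211871 of GRCh38). Genes of the other strand overlap 19.01% of its exonic bases. The leukocyte marker PTPRC stayed at or below 1 read in each of the 4 libraries, while CSF1R and ITGAM rose and CD14 fell, as given above, and their part in the result was not tested. PLA2G4C, a cytosolic phospholipase A2 that releases fatty acids from membrane lipids, had 33.5 and 37.6 normalized counts in the untreated and 10525 and 9959.9 in the depleted libraries (log2 fold change 8.13, limma adjusted p = 3.46e-28; chromosome 19, 48047843 to 48110817). TMEM156, a transmembrane protein gene, went from 11.9 and 16.8 to 1951 and 1759 normalized counts, and CD274, which codes for the checkpoint ligand PD-L1, from 36.8 and 31.6 to 2804 and 2413. In each of these genes the depleted libraries lay close together and far above both untreated ones.

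Increases were also seen in single genes of transcription and chromatin, picked as examples. ETS1, a transcription factor of the ETS family, went from 869.8 and 978 to 40552 and 38208 normalized counts (log2 fold change 5.41, SE 0.0562). HDAC9, a class IIa histone deacetylase, went from 81.1 and 74.1 to 4461 and 4388 (log2 fold change 5.82). KLF4, a zinc finger factor of differentiating epithelium, went from 669.7 and 688 to 5424 and 5247 (log2 fold change 2.97). ETS1, HDAC9 and KLF4 were named after their values were seen.

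A small set of genes went from almost no reads to clear expression. Of the tested genes, 11 had at most 3 reads in each untreated library and averaged 100 normalized counts or more once histidine was removed, and 6 of them are protein-coding. MARCHF4, a membrane-bound ubiquitin ligase, had no read in untreated cells and 274 and 287 normalized counts after depletion, at least 181-fold higher against a floor of 3 reads over the untreated group. The long noncoding RNA LINC02725 also had no read before and 173 and 199.6 after, at least 119.9-fold higher. RELN, a secreted matrix glycoprotein, went from 3 reads in all to 416 and 409 normalized counts, a ratio of 266 with a 95% counting interval of 90.8 to 1294. IL7R, the receptor chain for interleukin-7, H1-6, a histone H1 that is usually found in testis, FIGN and FCGR1A were the other coding genes, with 112 and 141, 195 and 178, 147 and 135 and 146 and 128 normalized counts after depletion. In the opposite direction a single gene met the same limits. SLC14A1, the urea transporter of red cells and kidney, went from 118 and 93.9 to 1.81 and 0 normalized counts, 110.3-fold lower with a 95% counting interval of 30.1 to 917. FIGN and FCGR1A were named after their values were seen, and the intervals and floors cover counting error only. The genes were picked by the same reads that give the ratios, floors and intervals. These values therefore describe the picked genes, may overstate the change and are no test of it.

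Several of the largest decreases were in genes of intestinal epithelium. ATOH1, the transcription factor that specifies the secretory lineage, had 191 and 243 normalized counts in the untreated and 0.904 and 17.2 in the depleted libraries (log2 fold change -5.20, SE 0.545, limma adjusted p = 5.24e-09; chromosome 4, 93828753 to 93830964), and SPINK4, a goblet cell protease inhibitor, went from 632 and 634 to 9.04 and 29.4. The depleted replicates differed from each other for ATOH1, yet both were below the untreated ones. ANXA13, an annexin of intestinal epithelium, went from 18669 and 19877 to 446 and 903, so that its depleted libraries also differed in level. CSPG4, a membrane proteoglycan, went from 1837 and 1928 to 46.1 and 61.8 and CXCR4, a chemokine receptor, from 2811 and 3010.3 to 87.6 and 133. FAIM2 (339.7 and 339 to 9.04 and 10.1), PTPRO (274 and 255 to 6.33 and 10.1) and LINC00261 (905 and 918 to 19.9 and 58.8) were further large decreases, each without overlap of the groups. For CSPG4, 5 pseudogenes carry its name, which leaves its reads less certain.

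**Figure D2:**
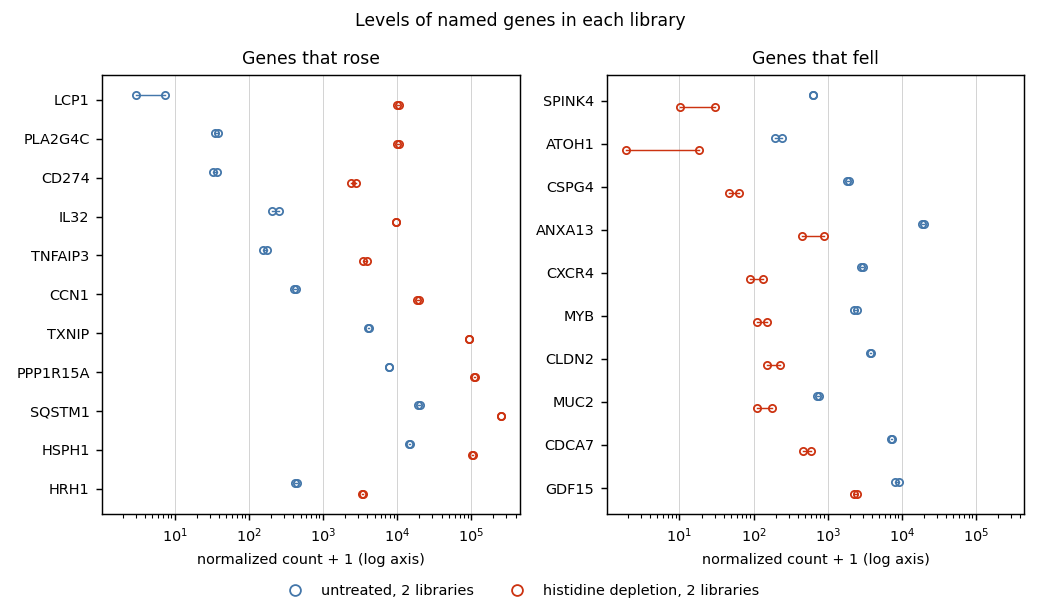
Normalized count + 1 (horizontal log axis) of 11 genes that rose (left) and 10 genes that fell (right) in each of the 2 untreated (blue) and 2 histidine-depleted (red) libraries, with a line joining the replicates of a group. In each of these genes the groups are apart by more than the distance between replicates, which is widest for ATOH1 after depletion.

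To see which functions moved, 54 gene lists were described by the number of tested members that passed the threshold, to be read against the shares of 39.1% higher and 38.2% lower over all genes. The lists with the highest medians held histone, keratin, YAP and TEAD, heat shock, antigen presentation, AP-1 and NF-kB genes. Those with the lowest medians held goblet cell, mucin, enterocyte, WNT and stem cell, and DNA replication genes.

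The genes that amino acid shortage is known to raise through ATF4 did not rise as a group. The list of ATF4 targets had 29 tested genes, with ATF4 itself counted among them. Of these 4 were higher and 17 lower after histidine depletion, with a median log2 fold change of -0.28 against 0.010 over all genes. The ATF4 motif that was searched is TGATGNAA, on both strands, and 25% of the 24 ATF4 targets with a promoter sequence hold it within 250 bases before to 50 bases after the start site, against 1.86% of all 11684 promoters of tested genes. To show what such an element looks like, the match is given for ASNS and CHAC1 of this list and for PPP1R15B, a phosphatase subunit, and IARS1, the isoleucyl-tRNA synthetase, which are in other lists. Capitals mark the match within its lower-case flanks, from RefSeq promoters of GRCh38.p14.
ASNS (chr7:97872458-97872487, minus strand): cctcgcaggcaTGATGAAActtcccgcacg
CHAC1 (chr15:40953251-40953280, plus strand): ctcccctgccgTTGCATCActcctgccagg
PPP1R15B (chr1:204412026-204412055, minus strand): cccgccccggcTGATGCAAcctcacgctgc
IARS1 (chr9:92293698-92293721, minus strand): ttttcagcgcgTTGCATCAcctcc

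ASNS, asparagine synthetase and a textbook target of this pathway, had 451 and 395 normalized counts in the untreated and 376 and 411 in the depleted libraries, and the groups overlapped (log2 fold change -0.10, limma adjusted p = 0.327). Its reads are uncertain, since 49.3% of its exonic bases overlap a second gene of that strand. TRIB3, a pseudokinase that restrains ATF4, went from 16143 and 18940.1 to 10128 and 10531 normalized counts and SESN2, a leucine sensor that holds back mTORC1, from 4823 and 4763 to 3291 and 3420.3. Both fell, with log2 fold changes of -0.76 and -0.51. The largest decreases of the list were those of GDF15, a stress cytokine, from 8147 and 9306 to 2282 and 2484, NUPR1, a stress-response chromatin protein, from 1141 and 1260.0 to 324 and 390.0, and SLC7A11, the cystine transporter, from 16712 and 17338 to 6354 and 6479. The mRNA of ATF4 itself went from 35037 and 35940.3 to 29297 and 29206. For NUPR1, another gene on its strand covers 16.5% of the exonic bases.

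The 4 members that rose are ATF3, SLC3A2, DDIT3 and CHAC1. ATF3, a stress-induced transcription factor, went from 1957 and 1933 to 5557 and 5399 normalized counts (log2 fold change 1.49, limma adjusted p = 3.15e-18), and SLC3A2, the heavy chain of several amino acid transporters, from 20637 and 21485 to 42884 and 42709. DDIT3, the CHOP factor of endoplasmic reticulum stress, rose by 0.69 and CHAC1, a glutathione-degrading enzyme, by 0.27 on the log2 scale. For DDIT3, genes on the other strand cover 31.6% of its exonic bases, which matters only where strand was not used in counting.

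Tryptophan depletion served in the study as the comparison with shortage of another amino acid. Over 18264 genes scaled together in all 6 libraries, 7068 or 38.7% were higher and 6938 or 38% lower after histidine than after tryptophan depletion (limma, adjusted p under 0.05). Of the 29 genes in the ATF4 target list, ATF4 included, 1 was higher and 26 lower. The median difference was -1.42 on the log2 scale against 0.011 over all genes. ASNS was lower by a log2 difference of -1.08 (SE 0.0834, limma adjusted p = 1.85e-09), TRIB3 by -1.83 and NUPR1 by -2.99. CLGN, a chaperone gene, and FGF21, a stress hormone, differed by -5.72 and -3.13. ATF3 was the member that was higher after histidine depletion, by 0.50 (limma adjusted p = 4.54e-09). The tryptophan-free medium was made on a different base, DMEM F-12, so base medium and amino acid cannot be told apart here either.

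**Figure D3:**
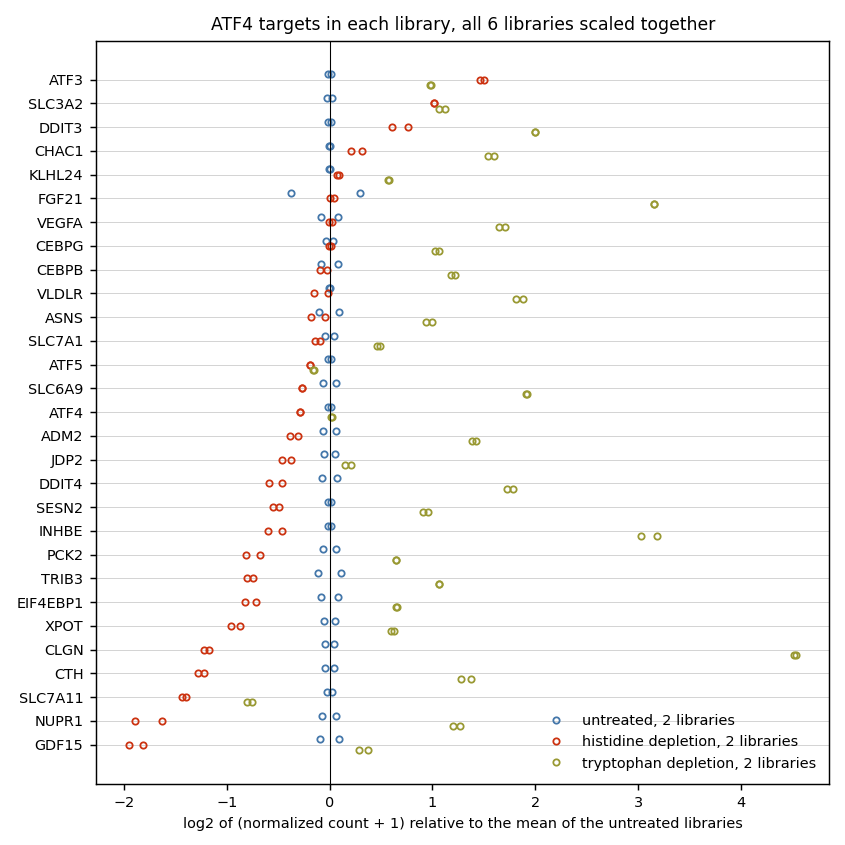
Level of each of 29 genes of the ATF4 target list, ATF4 included, in the 2 untreated (blue), 2 histidine-depleted (red) and 2 tryptophan-depleted (olive) libraries, as log2 of (normalized count + 1) relative to the mean of the untreated libraries, with all 6 libraries scaled together. In most rows the red points lie at or left of the untreated points and the olive points to their right, with ATF3, SLC3A2, DDIT3 and CHAC1 as rows in which both depletions lie clearly to the right.

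The kinases and phosphatase subunits around eIF2alpha moved individually. PPP1R15A, known as GADD34, is the inducible phosphatase subunit that removes the phosphate from eIF2alpha, and it had 7749 and 7903 normalized counts in the untreated and 111985 and 108269 in the depleted libraries (log2 fold change 3.81, SE 0.0539, limma adjusted p = 2.42e-25). Its constitutive counterpart PPP1R15B went from 9329 and 9296 to 17658 and 16614, and EIF2S1, which codes for eIF2alpha itself, from 4166 and 4053 to 13163 and 12904. EIF2AK4, the gene of GCN2, rose by 0.45, while the kinases EIF2AK1, EIF2AK2 and EIF2AK3 fell by 0.57, 0.50 and 0.25 on the log2 scale. Of the 9 genes of this list 5 rose and 4 fell, with a median of 0.18 that changed to -0.084 with quantile normalization. PPP1R15A was also higher than after tryptophan depletion, by 2.88 (limma adjusted p = 8.74e-19), whereas for PPP1R15B the difference of 0.03 did not pass (SE 0.0406, limma adjusted p = 0.453).

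Genes that make serine and one-carbon units fell, many of which are ATF4-dependent in other settings. Of 17 tested genes 14 were lower and 2 higher, with a median of -0.79. PHGDH, the first enzyme of serine synthesis, went from 9811 and 10618 to 4966 and 5469 normalized counts, PSAT1 from 24886 and 27020.2 to 15977 and 17194 and PSPH from 4937 and 5234 to 3258 and 3496. AHCY, which hydrolyses S-adenosylhomocysteine, went from 29078 and 31759 to 9303 and 10052, and MTR, methionine synthase, from 2576 and 2709 to 947 and 944. SHMT2 (0.25) was among those that rose, but did not pass with quantile normalization (0.0031) or without histidine-depleted replicate 2 (0.22). AHCY has 6 pseudogenes of its name.

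Amino acid transporters had 12 of 32 tested genes higher and 14 lower, near the shares over all genes, with a median of -0.086. SLC7A7, a light chain that exports cationic amino acids, went from 1394 and 1389 to 217 and 274 normalized counts and SLC43A1, a facilitated transporter of large neutral amino acids, from 8366 and 8941 to 3197 and 3491. SLC7A5, the light chain of the transporter that carries histidine among other large neutral amino acids, went from 40898 and 44569.9 to 37253 and 39416 (log2 fold change -0.16, limma adjusted p = 0.0215). This small difference did not pass without histidine-depleted replicate 1 (-0.12) or 2 (-0.20). Nor did it pass without the mean-variance trend or without a filter (limma adjusted p = 0.146 and 0.0517). The members that rose by at least 1 were SLC3A2, SLC36A1 (1.21), SLC7A6 (1.23) and SLC7A9 (1.24). SLC15A4 and SLC38A9, lysosomal carriers of histidine and arginine, had log2 fold changes of -0.06 and 0.11 and did not pass.

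Genes of histidine use itself included 5 higher and 6 lower of 12 tested, with a median of -0.029 that turned to 0.061 with a mean of at least 50. HRH1, the histamine receptor H1, had 450.0 and 423 normalized counts in the untreated and 3507 and 3418 in the depleted libraries (log2 fold change 2.99, SE 0.0630, limma adjusted p = 3.69e-22; chromosome 3, 11137093 to 11263557). CARNMT1, a histidine methyltransferase that makes anserine from carnosine, went from 1697 and 1734 to 4049.9 and 3929, and HAL, which opens histidine catabolism, from 27.05 and 20.8 to 57.8 and 43.6. AOC1, the diamine oxidase that breaks down histamine, fell from 1865 and 2019 to 454 and 561, and CARNS1, carnosine synthase, from 49.8 and 41.5 to 16.3 and 21.3. HARS1, the cytosolic histidyl-tRNA synthetase, rose from 4368 and 4558 to 5898 and 5734, and HARS2, its mitochondrial counterpart, fell from 3080.0 and 3158 to 1511 and 1509.5. The gene of histidine decarboxylase, HDC, did not reach the filter.

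In the mTORC1 pathway 15 of 33 tested genes rose and 16 fell, with a median of 0.073. The largest increases were in genes of the lysosomal folliculin branch, RRAGC (619.9 and 703 to 2486 and 2381), FNIP1 (2139.9 and 2199.9 to 7681 and 7112) and FLCN (1016 and 896 to 2340.3 and 2197), and in TSC1 (2504 and 2341 to 5823 and 5449.5), part of the complex that inhibits the pathway. DEPTOR, a subunit that inhibits the mTOR kinase, fell from 1774 and 2107 to 392 and 475, and SESN1 from 683 and 774 to 258 and 246. MTOR fell, with a log2 fold change of -0.58, and the GATOR subunits WDR59, DEPDC5, WDR24, NPRL3 and NPRL2 were lower by 0.50 to 1.00 on that scale. For RRAGC, another gene on its strand covers 23.1% of the exonic bases.

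Among cytosolic aminoacyl-tRNA synthetases and their cofactors 10 of 24 genes rose and 11 fell, with a median of -0.021 that turned to 0.025 without untreated replicate 2. QARS1, the glutaminyl-tRNA synthetase, had the largest change, from 12500.5 and 12901 to 4470.1 and 4621 normalized counts (log2 fold change -1.48, limma adjusted p = 1.75e-18). GARS1 went from 23300.4 and 24086 to 11666 and 11709 and AARS1 from 23852 and 25051 to 15197 and 16047, both lower. RARS1 (0.96), FARSA (1.01) and AIMP2 (1.06) had the largest increases. HARS1, with 0.38, was in the middle of the list.

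Enzymes that modify tRNA had 25 of 44 genes higher and 13 lower, with a median of 0.28. URM1, the ubiquitin-like sulfur carrier that thiolates the wobble uridine of tRNAs for lysine, glutamine and glutamate, went from 5687 and 5865 to 8167 and 8404 (log2 fold change 0.52). Its partners CTU1 and CTU2 had log2 fold changes of 0.18 and -0.02 (limma adjusted p = 0.101 and 0.782), and ELP3, the catalytic subunit of Elongator that acts on the same uridine, fell by 0.28. With quantile normalization CTU2 passed in the other direction (0.18, limma adjusted p = 0.0208). GTPBP3 (774 and 752 to 185 and 228), TRDMT1 (555 and 623 to 191 and 229) and ADAT2 (643 and 579 to 235 and 259), which modify mitochondrial tRNA, cytosine and wobble adenosine, had the largest decreases.

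Of 63 ribosome biogenesis genes 47 rose and 11 fell, with a median of 0.53, and of 53 translation factors 37 rose and 11 fell, with a median of 0.35. UTP23 (4403 and 4598 to 18058 and 18026), PNO1 (1812 and 1719 to 6474 and 6169.9) and RRP12 (4126 and 4296 to 12687 and 12739), which process small subunit RNA, rose most in the first list. Cytosolic ribosomal protein genes had 19 of 81 higher and 38 lower, with a median of -0.10, and 7 of them fell by at least 1. Among these were RPL3 (138240.0 and 148536 to 36723 and 40050.4), RPL12 (59928 and 63923 to 17589 and 18404) and RPL37 (62347 and 66207 to 19156 and 20970.4), whose reads are less certain because 13, 50 and 15 pseudogenes carry their names. The share of all reads from this list was 8.34% and 8.65% in untreated and 6.33% and 6.53% in depleted cells. Mitochondrial ribosomal protein genes had 39 of 76 higher and 29 lower, with a median of 0.20, and MRPL16 (3913 and 4207 to 1089 and 1146), MRPL1 (1692 and 1789.8 to 493 and 482) and MRPL13 (8336 and 9221 to 2579.8 and 2720.2) fell most.

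Chaperones of the heat shock response rose strongly. Of 26 tested genes 21 rose and 3 fell, 15 rose by at least 1, and the median log2 fold change was 1.14. HSPH1, an HSP110 chaperone, had 14485 and 14861 normalized counts in the untreated and 107389 and 102884 in the depleted libraries (log2 fold change 2.84, SE 0.0565, limma adjusted p = 1.26e-22). The inducible HSPA1A went from 2513 and 2899 to 19079 and 19245, and the constitutive HSPA8 from 100639 and 101196 to 305786 and 296433. HSP90AA1 (41285 and 41626 to 103973 and 101405), DNAJA1 (9787 and 9926 to 36076 and 34945) and DNAJB1 (5267 and 5556 to 16444 and 16726) also rose, and HSF1, the factor that drives this response, went from 6447 and 6955 to 12838 and 13589.9. The strictly inducible HSPA6, named after its values were seen, went from 19.5 and 19.8 to 1116 and 1128. HSPA14, HSPA2 and the mitochondrial HSPA9 fell. HSPA1A shares reads with its near-identical copy HSPA1B (1619.5 and 1712 to 8052 and 8060.3), and HSPA8 has 17 pseudogenes.

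Heat shock elements are inverted repeats of the letters GAA, and the form searched here on both strands, GAA, TTC and GAA with 2 bases of any kind between each, occurs in 16.7% of the 24 heat shock promoters and in 0.342% of all promoters. The matches before the start sites of HSPA8 and HSPA6 are shown because both genes rose.
HSPA8 (chr11:123062346-123062374, minus strand): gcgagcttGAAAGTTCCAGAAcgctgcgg
HSPA8 (chr11:123062171-123062199, minus strand): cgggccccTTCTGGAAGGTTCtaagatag
HSPA6 (chr1:161524458-161524486, plus strand): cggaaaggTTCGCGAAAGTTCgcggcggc

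The other arms of protein quality control moved in the same direction with smaller changes. Of 27 genes of the unfolded protein response of the endoplasmic reticulum 20 rose and 4 fell, with a median of 0.35. HSPA5, the chaperone BiP, went from 31877 and 34168 to 55709.8 and 53951, and XBP1, a transcription factor of this response, from 19915 and 21295 to 45839.7 and 45011. Proteasome genes had 26 of 46 higher and 12 lower, with a median of 0.28.

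Autophagy and lysosome genes had 28 of 42 higher and 5 lower, with a median of 0.55 and 14 increases of at least 1. SQSTM1, the autophagy receptor p62, had 19227 and 20447 normalized counts in the untreated and 249872 and 251341 in the depleted libraries (log2 fold change 3.66, SE 0.0629, limma adjusted p = 9.92e-24; chromosome 5, 179806398 to 179838078). MAP1LC3B (4728 and 5403 to 18381 and 18064) and GABARAPL1 (979 and 1067 to 3000.0 and 2918), which code for proteins on autophagosome membranes, and NPC1 (2577 and 2683 to 7382 and 7126), which exports cholesterol from lysosomes, rose as well. TFE3, a transcription factor of lysosome genes, went from 5345 and 5640.0 to 23072 and 23396 and MITF, of the same family, from 11.9 and 7.91 to 103 and 100.3, while TFEB fell from 592 and 590.0 to 329.8 and 368. Genes on the other strand cover 22.4% of the exonic bases of SQSTM1.

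Replication-dependent histone genes moved together. All 38 tested members were higher, 37 of them by at least 1, with a median log2 fold change of 3.15, and 29 of the 67 listed members stayed below the filter. A member that passed the filter only through its depleted libraries had to differ, so this count describes the tested members. H4C8 had 42.2 and 37.6 normalized counts in the untreated and 2597 and 2594 in the depleted libraries, H2BC4 went from 32.5 and 36.6 to 1695 and 1660.5, H2AC6 from 596 and 609 to 7113 and 7032 and H2BC21 from 317 and 349 to 4140.3 and 4142. Their mRNAs normally end in a stem-loop without a poly(A) tail, and the libraries were made from polyadenylated mRNA. The list took 0.00596% and 0.00602% of the reads in untreated and 0.0575% and 0.0572% in depleted cells. Histone genes are near-identical copies, so reads can be split between them, and for H2BC4 genes on the other strand cover 30.9% of the exonic bases.

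These genes lie in clusters, and they made up most of the longest runs of neighbouring coding genes that rose by at least 1. The longest run held 16 genes on chromosome 6 (26103933 to 26285638), a run of 7 genes lay further along this chromosome (27808173 to 28089563), and another held 8 genes on chromosome 1 (149782671 to 149886682). Of the 690 coding genes tested on chromosome 6, 23.0% rose by at least 1, against 15.7% of all coding genes, and the histone runs are part of that share. Another run of increases held 6 genes on chromosome 17 (41513745 to 41734644), among them KRT15, KRT19, KRT16 and KRT17, and the longest run of decreases 8 protocadherin gamma genes on chromosome 5 (141359994 to 141512975).

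Histone promoters carry a TATA box and CCAAT boxes more often than others. TATAAA was found in 61.1% of 36 histone promoters against 6.44% of all, and CCAAT in 80.6% against 36.5%, on both strands. H2AC6 and H2BC4 are transcribed away from each other and share the bases between their start sites, so the boxes shown for H2AC6 also lie before H2BC4 on the other strand.
H2AC6 (chr6:26124129-26124158, plus strand): ccaggaactaccTATAAAagcggccatgtt
H2AC6 (chr6:26124092-26124120, plus strand): atttgctaccgaCCAATcaaaaagtcgga

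DNA replication genes went the other way. Of 53 tested genes of S phase and DNA replication 52 were lower and 0 higher (limma, also 0 at an unadjusted p under 0.05, with edgeR and with DESeq2), 33 fell by at least 1, and the median was -1.20. CDCA7, a chromatin protein of S phase, went from 7337 and 7077 to 458 and 588 normalized counts (log2 fold change -3.79, limma adjusted p = 1.69e-22). ORC1, of the origin recognition complex, went from 1930.0 and 1862 to 260.2 and 315, RRM1, the large subunit of ribonucleotide reductase, from 11286 and 11669.5 to 2498 and 2803, and the helicase subunit MCM2 from 7428 and 7488 to 2039 and 2381. SLBP, which binds the stem-loop of histone mRNA, fell from 3690.1 and 3620.0 to 3069.5 and 3192. The E2F motif TTTNGCGC was present in 36.4% of 44 promoters of this list and in 2.89% of all promoters. TYMS went from 1297 and 1146 to 189 and 199, but genes on the other strand cover 47.9% of its exonic bases.

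Mitotic genes fell less and less uniformly, with 34 of 51 lower, 10 higher and a median of -0.48. MYBL2 (13494 and 14165 to 2415 and 2685), SPC24 (1430.2 and 1404 to 193 and 212) and TOP2A (27733 and 29178 to 8983 and 9009.6) had large decreases, and MKI67, the Ki-67 proliferation marker, went from 22086 and 23653 to 12862 and 12717. CDK1 (-0.01), CCNA2 (-0.00) and AURKA (-0.07) did not pass, while CCNB1 (0.23), PTTG1 (0.91) and ANLN (1.09) rose.

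**Figure D4:**
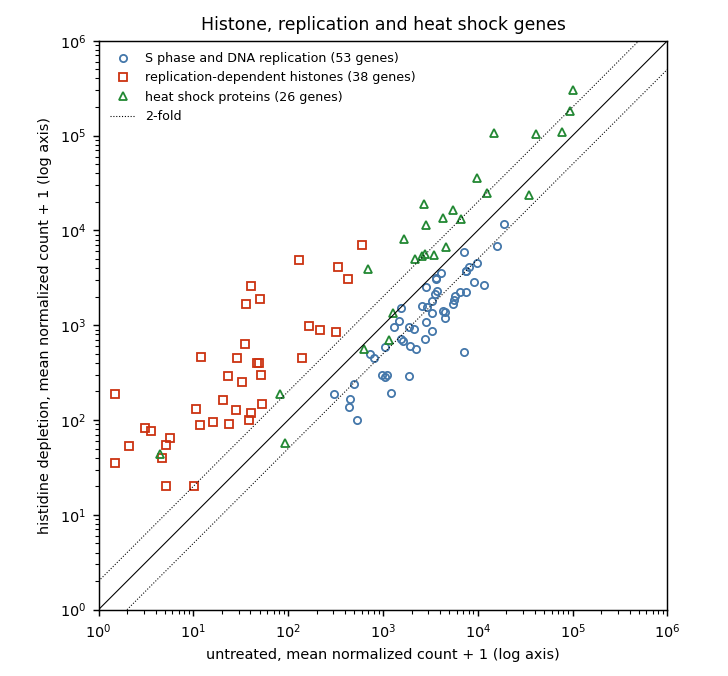
Mean normalized count + 1 after histidine depletion (vertical log axis) against that in untreated cells (horizontal log axis) for 38 histone genes (red squares), 53 S phase and DNA replication genes (blue circles) and 26 heat shock genes (green triangles), with equal levels as a solid and 2-fold differences as dotted lines. The histone genes lie above the solid line, the replication genes below or on it, and most heat shock genes above it.

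Genes around the G1 phase moved in both directions. CDKN1A, the inhibitor p21, had 1139 and 1209 normalized counts in the untreated and 8592 and 8145 in the depleted libraries (log2 fold change 2.83, SE 0.0540, limma adjusted p = 5.95e-23), CDKN2B, the inhibitor p15, went from 1889 and 1985 to 7196 and 7185, and the cyclin gene CCND1 from 7604 and 8086 to 18748 and 19508. RBL1 and RBL2, relatives of the retinoblastoma protein, fell from 1732 and 1681 to 638 and 629 and from 4545 and 4469.9 to 1354 and 1504. The list as a whole had 10 of 24 genes higher and 11 lower, with a median of -0.10 that turned to 0.012 without untreated replicate 2. MYC had a log2 fold change of -0.08 (limma adjusted p = 0.167). Of 28 targets of p53, which is mutated in HT29 cells, 13 were higher and 11 lower, with a median of 0.044 that turned to -0.013 without untreated replicate 1. GADD45A (2.40), TIGAR (2.23) and ZMAT3 (1.82) rose next to CDKN1A, whereas MDM2 (-0.11) did not pass and SESN1 and FDXR (-1.28) fell.

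NF-kB genes were higher at the level of the subunits, their inhibitors and their targets. Of 23 tested genes of subunits, inhibitors and adaptors 21 rose and 0 fell, with 11 increases of at least 1 and a median of 0.97 (0 lower also at an unadjusted p under 0.05, with edgeR and with DESeq2). RELB went from 673 and 789 to 4963 and 4931 normalized counts, RELA from 6749.5 and 7188 to 30488 and 30944 and NFKB2, the precursor of the noncanonical pathway, from 1623 and 1938 to 8719 and 8579. TNFAIP3, the deubiquitinase A20 that limits the pathway, had 173 and 153 normalized counts in the untreated and 3914 and 3504 in the depleted libraries (log2 fold change 4.50, limma adjusted p = 1.19e-23), and NFKBIA, its classical inhibitor, went from 1445 and 1539.7 to 3699 and 3753. Of 21 targets 16 rose and 3 fell, with a median of 1.04. BIRC3, which codes for an inhibitor of apoptosis, went from 313 and 375 to 9842 and 9473, ICAM1, an adhesion molecule, from 306 and 283 to 1683 and 1759 and IRF1 from 1305 and 1404 to 5059 and 5060.5. LCN2 and IL1RN, also counted as targets, fell from 12293 and 13063 to 5826 and 6420.1 and from 890.3 and 983 to 328 and 403.

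The NF-kB motif, GGGA and TTTCC with 1 base of any kind between them, searched on both strands, was found in 25% of 20 promoters of the first list and in 5.88% of 17 promoters of its targets, against 0.582% of all promoters. Among the 1832 promoters of genes that rose by at least 1 its share was 1.31%, and among the 1829 of genes that fell by as much 0.437%. The matches in genes with large increases are shown.
IL32 (chr16:3065294-3065323, plus strand): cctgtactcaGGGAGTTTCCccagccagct
TNFAIP3 (chr6:137867182-137867211, plus strand): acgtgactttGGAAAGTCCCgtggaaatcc
TNFRSF9 (chr1:7940894-7940923, minus strand): gagctgtggtGGGAATTTCCcatgagaccc
TAP1 (chr6:32853757-32853786, minus strand): gcctgttcctGGGACTTTCCgagagccccg
B2M (chr15:44711382-44711411, plus strand): actgaaaacgGGAAAGTCCCtctctctaac

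Cytokine genes rose selectively, with 17 of 32 tested genes higher, 6 lower and a median of 0.64. IL32 had 207 and 254 normalized counts in the untreated and 9856 and 9775 in the depleted libraries (log2 fold change 5.41, SE 0.0729, limma adjusted p = 1.14e-25; chromosome 16, 3065297 to 3082192). IL23A, a subunit of interleukin-23, went from 53.01 and 62.3 to 1216 and 1049, CSF1, the macrophage growth factor, from 62.7 and 52.4 to 681 and 654 and CXCL16, a membrane-bound chemokine, from 1008 and 1029 to 5882 and 5825. TNFSF15 went from 2626 and 2546 to 9088 and 8657. The neutrophil chemokines did not share this direction: CXCL8 went from 208 and 203 to 175 and 179 and did not pass (limma adjusted p = 0.12), and CXCL1 and CXCL3 fell by 0.58 and 1.11 on the log2 scale.

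Genes of antigen presentation and the interferon response were higher in larger numbers. Of 24 antigen presentation genes 18 rose and 3 fell, with a median of 1.09. B2M, the light chain of MHC class I, went from 19742 and 20702 to 57699.5 and 56656 normalized counts, TAP1, the peptide transporter in whose promoter an NF-kB match is shown above, from 228 and 204 to 1041 and 1103, and NLRC5, the activator of class I genes, from 155 and 165 to 1085 and 989.8. HLA-B went from 183 and 195 to 1103 and 1098, but 32.7% of its exonic bases overlap other genes of that strand. The class II genes HLA-DMA (353 and 346 to 72.3 and 89.2) and HLA-DMB (49.8 and 56.3 to 8.13 and 4.05) fell.

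Interferon-stimulated genes had 36 of 51 higher and 7 lower, with a median of 0.58. GBP1, a guanylate-binding protein, went from 74.6 and 62.3 to 2371 and 2381, RSAD2, the antiviral protein viperin, from 56.3 and 61.3 to 622 and 611, and ISG15, a ubiquitin-like modifier, from 1045 and 1162 to 4211 and 4599.5. IRF9 (0.06) and USP18 (-0.11) did not pass, while IFITM3 (-0.71) fell. The interferon motif, GAAA repeated after 2 bases of any kind, was present in 67.5% of 40 promoters of this list against 2.82% of all.

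Of 12 immune checkpoint ligands 4 rose and 7 fell, with a median of -0.35. CD274 had 36.8 and 31.6 normalized counts in the untreated and 2804 and 2413 in the depleted libraries (log2 fold change 6.21, SE 0.110, limma adjusted p = 1.40e-23; chromosome 9, 5450503 to 5470566), and ICOSLG, PVR and VSIR rose by 1.63, 0.93 and 0.84 on the log2 scale. HHLA2 (405 and 439 to 72.3 and 81.05), CEACAM1 (7322 and 7256 to 1665 and 1913) and CD276 (3890.3 and 4194 to 1633 and 1800.3) fell. Receptors and regulators of cell death had 16 of 30 higher and 11 lower, with a median of 0.21. TNFRSF10D, a decoy receptor for the death ligand TRAIL, went from 1270.1 and 1244 to 19212 and 18506, BMF and PMAIP1, which promote apoptosis, from 553 and 578 to 2601 and 2554 and from 633 and 655 to 2226 and 2273, and MCL1, which restrains it, from 19348 and 20617 to 43218 and 42365. FAS and CASP10 fell from 136 and 128 to 64.2 and 59.8 and from 828 and 902 to 247 and 259. For PVR, other genes on its strand cover 20.6% of the exonic bases. Of 11 inflammasome and gasdermin genes 4 rose and 5 fell, and PYCARD and NLRP3 fell, although genes on the other strand cover 59.7% of PYCARD and genes on the same strand 66.04% of NLRP3.

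The YAP and TEAD list, whose genes respond to cell shape and contact, held TEAD factors themselves as well as targets. It had 17 of 20 genes higher and 3 lower, with a median of 1.28. CCN1, a secreted matrix protein, had 410.0 and 435 normalized counts in the untreated and 19562 and 18902 in the depleted libraries (log2 fold change 5.51, SE 0.0539, limma adjusted p = 3.46e-28), and CCN2 went from 708 and 706 to 12394 and 11920.3. AXL, a receptor kinase, went from 655 and 745 to 4706 and 4414 and ANKRD1 from 32.5 and 43.5 to 214 and 245. The 3 genes that fell are TEAD2, TEAD3 and TEAD4, while YAP1 (0.76) and TEAD1 (0.71) rose. The TEAD motif ACATTCC was found in 20% of 15 promoters of the list and 2.33% of all, and the match in CCN2 stands for them.
CCN2 (chr6:131951450-131951478, minus strand): gaggaatgcgaGGAATGTccctgtttgtg

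AP-1 family genes had 13 of 17 higher and 3 lower, with a median of 1.07. FOSL1 (2113 and 2122 to 14829.9 and 14511), FOSB (638 and 590.0 to 5414 and 5256) and JUN (5843 and 6379 to 19140.1 and 18795) rose, while FOS fell from 1420.4 and 1397 to 1126 and 1095. The AP-1 motif TGANTCA occurred in 7.70% of promoters of genes that rose by at least 1, in 4.16% of those that fell by as much and in 4.93% of all. The match in the RefSeq promoter of HRH1, the histamine receptor gene described above, is given as an example. It lies 71 bases before the RefSeq start site, but within the gene as placed above, whose annotated start lies further upstream.
HRH1 (chr3:11137156-11137184, plus strand): tttagtcagacTGAGTCActtcaaggagg

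Genes of the ERK feedback loop had 13 of 22 higher and 5 lower, with a median of 0.59, and the phosphatases DUSP10 (115 and 119.6 to 2226 and 2049), DUSP5 (1143 and 1192 to 9528 and 9168) and DUSP1 (445 and 499 to 3764 and 3769) rose most. The EGF receptor family and its ligands had 5 of 14 higher and 7 lower, with a median of -0.44, and ERBB3, a receptor without kinase activity of its own, fell from 23265 and 23889 to 4795 and 5673.

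Cytoskeletal genes were mostly higher, with 23 of 29 up, 4 down and a median of 0.69. Beside LCP1, the contractile genes CALD1 (294 and 321 to 4332 and 4191) and MYL9 (179.6 and 232 to 1944 and 2100.2) rose, as did FLNA (56579.7 and 64781 to 271137 and 275304), EZR (12218 and 12557 to 48318 and 49747) and VCL (7612 and 8067 to 29166 and 28587), which link actin to membrane and adhesions. ESPN, an actin bundler of microvilli, fell from 67.1 and 42.5 to 3.61 and 4.05. The list took 1.62% and 1.70% of all reads in untreated and 2.86% and 2.89% in depleted cells. ACTG1, which went from 230299 and 254216 to 377363 and 384326, has 21 pseudogenes.

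Keratin genes, with 17 tested, had 13 higher and 2 lower and a median of 1.55. KRT7 went from 119 and 127 to 1366 and 1385, KRT17 from 927 and 1078 to 10201 and 10751 and KRT80 from 9974 and 11359 to 63209 and 64203, and KRT20, a marker of mature colon epithelium, from 10159.5 and 10690.1 to 34603 and 34912. KRT18 fell from 116882 and 122869 to 81046 and 86041, while its partner KRT8 rose from 184717 and 200251 to 320979 and 338977, though 51 pseudogenes carry the name of KRT8. A further 38 keratin genes were below the filter.

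Matrix and adhesion lists were mixed. Integrins and laminins had 12 of 21 higher and 8 lower, with a median of 0.51, and LAMA1 went from 1.08 and 2.96 to 23.5 and 19.2. TGF-beta signalling had 15 of 26 higher and 8 lower, with a median of 0.35, and THBS1, which activates the latent factor, went from 986 and 1014 to 14289 and 13004. Tight junction genes had 12 of 21 higher and 8 lower, with a median of 0.37, and CLDN2, the pore-forming claudin of crypts, fell from 3707 and 3803 to 153 and 225. Matrix proteases had 8 of 21 higher and 9 lower, with a median of -0.14 that turned to 0.11 without a filter and to 0.043 without histidine-depleted replicate 2, and MMP7 rose from 3873 and 4129 to 15123 and 14989. Regulators of the epithelial-mesenchymal transition had 4 of 12 higher and 5 lower, with a median of -0.083 that turned to 0.48 without a filter and to 0.082 without untreated replicate 2. Among them SNAI1 (83.3 and 94.9 to 759 and 686) and ZEB1 (23.8 and 16.8 to 259 and 197) rose, and S100A4 fell from 21311 and 23060.2 to 5698 and 6139.

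Intestinal differentiation and stem cell genes were lower in each of their lists. Goblet and secretory lineage genes had 19 of 22 lower and 2 higher, with a median of -1.51, enterocyte genes 19 of 23 lower and 3 higher, with a median of -1.37, and WNT and stem cell genes 18 of 22 lower and 3 higher, with a median of -1.21. HNF4A, a nuclear receptor that maintains enterocyte identity, had 7079 and 7324 normalized counts in the untreated and 1007 and 1124 in the depleted libraries (log2 fold change -2.76, limma adjusted p = 2.93e-22), and CDX2 went from 464 and 454 to 182 and 171. SPDEF, which drives goblet cell maturation, went from 1464 and 1785 to 323 and 379, and REG4 from 381 and 393 to 26.2 and 42.6. LGR5 and ASCL2, which mark crypt base stem cells, went from 756 and 755 to 71.4 and 87.1 and from 291 and 339 to 20.8 and 31.4, MYB from 2301 and 2530.0 to 111 and 151 and CD44, a WNT target and hyaluronan receptor, from 24238 and 24836 to 3415 and 3794. The members that rose, KLF4 and SPINK1 in the first list, KRT20, CA2 (1.20) and GATA6 (0.65) in the second, and SMOC2 (8.65 and 4.94 to 235 and 232), EPHB2 (1.83) and BMI1 (0.67) in the third, show that the direction did not hold for each gene.

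Mucin genes had 7 of 11 tested members lower, each by at least 1, and 1 higher, with a median of -1.43. The gel-forming MUC2 had 754 and 723 normalized counts in the untreated and 109 and 177 in the depleted libraries, and MUC5AC went from 2256 and 2425 to 452 and 433. The membrane mucin MUC13 went from 6522 and 6589.8 to 2401 and 2459.8 and MUC1 from 159 and 171 to 19.9 and 35.5. MUC4 was the member that rose, from 64.9 and 35.6 to 88.6 and 93.2. CEACAM5, an adhesion molecule of colon carcinoma, went from 492 and 537 to 66.9 and 104.

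Of the metabolic genes, TXNIP, an arrestin that lowers glucose uptake and binds thioredoxin, had 4122 and 4228 normalized counts in the untreated and 95214 and 94484 in the depleted libraries (log2 fold change 4.51, SE 0.0512, limma adjusted p = 4.01e-27). Its relative ARRDC4 went from 327 and 371 to 6907 and 6694 and ARRDC3 from 946 and 985 to 2701 and 2774. The genes of their glucose-sensing activators MLXIP and MLXIPL fell from 10275 and 10879 to 6316 and 6686 and from 91.96 and 82.03 to 9.94 and 17.2, while their partner MLX rose from 4202 and 4309.8 to 6069 and 5999.7. The list of thioredoxin-interacting and arrestin domain genes had 5 of 10 tested genes higher and 3 lower, with a median of 0.17.

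NRF2 targets had 17 of 27 lower and 7 higher, with a median of -0.35. AKR1B10, an aldo-keto reductase, went from 3836 and 3745 to 264 and 289.8, GPX2, the intestinal glutathione peroxidase, from 34308 and 36707 to 5984 and 6878 and NQO1 from 28327 and 29279 to 8622 and 9372, with genes on the other strand over 19.4% of the exonic bases of NQO1. TXNRD1 (30276 and 32304 to 65294 and 65463) and OSGIN1 (797 and 828 to 2603 and 2588) rose, and HMOX1 (0.02) did not pass. Of the 10 metallothionein and zinc genes 4 rose and 5 fell, and their median of -0.18 turned to 0.55 with a mean of at least 50 and to 0.043 without untreated replicate 2. MT1E fell from 1928 and 2098 to 293 and 323, and MTF1, the zinc-sensing factor of this system, rose from 2245 and 2274 to 6685 and 6646.

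Carbon and lipid metabolism changed in both directions. Glycolysis and hypoxia genes had 17 of 34 higher and 13 lower, with a median of 0.27, among which ADM rose from 191 and 191 to 2714 and 2764 and CA9 and CA12 fell from 3044 and 2930.2 to 363 and 488 and from 6155 and 6033 to 1032 and 1194. Cholesterol synthesis had 14 of 25 higher and 10 lower, with a median of 0.39, and INSIG1, which holds the pathway back, rose from 2259.9 and 2271 to 9617 and 9624. Fatty acid synthesis had 8 of 18 higher and 6 lower, with a median of 0.13 that turned to -0.076 with quantile normalization. For CA9, genes on the other strand cover 35.7% of the exonic bases.

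Respiratory chain genes of the nucleus had 41 of 79 lower and 22 higher, with a median of -0.16, and CYC1 (11031 and 12179 to 3674 and 3938), ATP5MC3 (7777 and 8093 to 2919 and 3062) and UQCRQ (3344 and 3219.8 to 1191 and 1331) fell by at least 1. Of the 15 genes of the mitochondrial genome 2 rose and 7 fell, with a median of -0.15 that turned to 0.069 without untreated replicate 1. They took 3.82% of the reads in untreated replicate 1 and 2.71% in replicate 2, and 2.86% and 2.41% in the depleted libraries, so the replicates of the untreated group differed by more than the groups did.

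Among 338 tested long noncoding RNAs with a LINC name 111 rose and 132 fell, with a median of -0.14 that turned to 0.13 without a filter. LINC00943 went from 3.25 and 2.96 to 334 and 312 normalized counts. Hosts of small nucleolar RNAs had 10 of 24 higher and 4 lower, with a median of 0.13. GAS5, whose spliced RNA is known to accumulate when its translation stops, went from 11153 and 11530.1 to 23113 and 22249 and SNHG12 from 728 and 654 to 2006 and 1882, while SNHG19 fell from 223 and 251 to 123 and 99.3.

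Since histidine was the amino acid withdrawn, the changes were also set against the histidine content of the proteins. Over 13145 coding genes grouped into 5 classes of nearly equal size by the percent of histidine codons, the median log2 fold change was 0.15 in the class with the lowest content (median 1.20% histidine codons), then 0.060, -0.00077 and -0.033, and -0.096 in the class with the highest content (median 4%). Across genes the Spearman correlation was -0.087, against -0.052 for tryptophan codons, -0.089 for GC content of the transcript and -0.022 for the number of codons. These are descriptions across genes, which are not independent replicates. Weighted by normalized counts, histidine made up 2.30% and 2.29% of the codons in mRNA of untreated cells, 2.23% in both histidine-depleted libraries, and 2.31% in both tryptophan-depleted ones.

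In the direct comparison with tryptophan depletion, lists that rose against untreated cells did not all go in 1 direction. LCP1 was higher after histidine depletion by 11.06 on the log2 scale (SE 0.371, limma adjusted p = 2.15e-14), PLA2G4C by 7.27 and CD274 by 7.15 (limma adjusted p = 2.08e-16). The median difference was 1.31 for heat shock proteins, with 21 of 26 genes higher and 3 lower, 2.27 for histones, with 36 of 37 higher and 0 lower, and 1.57 for NF-kB subunits and inhibitors, with 20 of 23 higher and 1 lower. A histone gene that passed the filter only through its histidine-depleted libraries had to differ here too, so the histone count describes the tested members. The unfolded protein response went the other way, with 21 of 27 genes lower and 4 higher in histidine-depleted than in tryptophan-depleted cells and a median difference of -0.56. Interferon-stimulated genes had 21 of 51 higher and 24 lower, shares near those over all genes in this comparison (38.7% and 38%), with a median of -0.36. Replication genes were higher than after tryptophan depletion, 49 of 53, with a median difference of 1.26. MCM7 differed by 1.81 and MKI67 by 1.46, as both fell further after tryptophan depletion, with log2 fold changes against untreated of -2.50 and -2.30.

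Some genes moved to opposite sides of the untreated level. MUC5AC fell by 2.40 after histidine depletion and had a log2 fold change of 3.64 after tryptophan depletion, with a direct difference of -6.05 (limma adjusted p = 3.94e-21). For CEACAM5 the direct difference was -6.54, for AKR1B10 -5.32, for CA12 -4.42 and for LCN2 -3.91, with log2 fold changes of 3.93, 1.54, 1.95 and 2.85 after tryptophan depletion. CREB5, a transcription factor of the AP-1 list, was higher after histidine and lower after tryptophan depletion, with a direct difference of 4.22. For other large changes the direct difference did not pass, among them TNFRSF9 (-0.14, SE 0.348, limma adjusted p = 0.727), CXCR4 (-0.28, SE 0.147, limma adjusted p = 0.0953) and SPINK4 (0.08, SE 0.365, limma adjusted p = 0.854). TXNIP and ARRDC4 rose in both, and the histidine-depleted cells were higher by 1.28 and 0.84.

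Over all promoters, motif shares differed between the genes that rose and those that fell by at least 1. TATAAA was present in 11.5% of the promoters of genes that rose against 6.29% of those that fell, the heat shock motif in 0.873% against 0.383% and the interferon motif in 4.15% against 2.35%. The E2F motif was less frequent among genes that rose, at 1.69% against 2.95%. CCAAT (36.0% and 35.1%) and the ATF4 motif (1.80% and 2.02%) had like shares on both sides. These matches to letters are no evidence of binding.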

How the data were processed

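Polyadenylated RNA of HT29 cells was sequenced with a stranded library kit. Per the study's methods and processing notes, the authors aligned reads with STAR (2.7.10a) to GRCh38, counted them per gene over exons with HTSeq (2.0.5) and gencode 38, and scaled them with DESeq2. The methods limit this counting to protein-coding genes, whereas the deposited table also has reads for long noncoding RNA genes and pseudogenes, of which 2768 and 1978 were tested here. The handling of strand, molecular identifiers and multi-mapping reads in counting is not given in the sources used here. The deposited values are a signal, counts divided by a size factor per library, and each library's smallest step gave back whole reads for 100% of the values (within 0.01 reads). Gene names came from the reference annotation (gencode 44), which matched 60357 of the 60676 listed genes and left 319 by identifier.

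Genes that averaged 10 normalized counts or more were tested with limma (3.58.1, R 4.3.3, mean-variance trend) on log2(normalized count + 1), 2 libraries against 2, with Benjamini-Hochberg adjustment over 18288 genes and a threshold of 0.05. Fold changes on this scale understate the change of low genes. The comparison with tryptophan depletion used the recovered reads of all 6 libraries, scaled together, since the deposited tables were normalized separately. Genes were named by rule: the 10 largest increases and decreases, the 3 largest changes and the most abundant member of each of 54 lists, and a fixed set of genes of interest. ETS1, HDAC9, HSPA6, FCGR1A, FIGN, CDX1, GPA33, LCN2, SLBP, NPC1, MAP1LC3B, TFE3, KRT7, KRT17, TOP2A, RRM1, MCM2, H2BC21, MUC13 and the further list members given with values were chosen after these were seen. Some genes that the rule names are not reported here. The members and lists were chosen with earlier results of these data known. With 200 genes changed in simulated counts of this comparison, limma recovered 84% of 2-fold and 98% of 4-fold changes at 3.70% false calls. The simulation changed 200 of 18288 genes and gave each gene the same spread beyond counting error, whereas 77.3% of genes were called in the data. Its share of false calls therefore does not carry over to these data. Alternatives were other pseudocounts, filters and normalizations, limma without the trend, edgeR (4.0.16), DESeq2 (1.42.0), a replicate block and leaving out each library. Promoters came from RefSeq (GRCh38.p14) for 11684 tested genes.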

Additional observations from a re-analysis of the deposited data

How the results depend on the processing

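The counts of 7149 higher and 6981 lower genes stayed within 1.5 times under the alternatives that kept the threshold. They were 7169 and 7111 with edgeR and 6330 and 6154 with DESeq2 on recovered reads, 6923 and 7188 with quantile normalization, 7768 and 7248 without a filter and 5870 and 5838 with a mean of at least 50. Requiring also a change of at least 1 left 3002 and 2947. Leaving out 1 library gave 6390 to 7278 higher and 6567 to 6697 lower genes, where the lone library of a group is assumed to vary like the other group. The deviations of same-numbered untreated and depleted libraries had a correlation of 0.050. This value cannot show whether the libraries were paired, since small shared effects would give a like value. The fit with the replicate number as a block called 7311 and 7121. Against tryptophan depletion, with 7068 higher and 6938 lower genes, the block gave 7095 and 6974, and leaving out 1 library 6468 to 7215 and 6318 to 7054.

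Of 258 named genes, 15 changed sign or lost their call under some alternative. That count leaves out results that became stronger, which were 27 of the 3605 combinations of gene and alternative. With quantile normalization the sign turned for ATP5F1B (-0.087), EPCAM (-0.077), SLC1A5 (-0.21), SCD (-0.045), CTU2 (0.18) and ASNS (0.12). Over the fits that leave out 1 library it turned for IARS1 (-0.11 to 0.0061, the latter without untreated replicate 2) and MT-CO1 (-0.37 to 0.089, the latter without untreated replicate 1). The cause was not tested. Medians of 11 of the 54 lists changed sign under some alternative, as given beside them. Over the 5 classes of histidine codon content the order of the medians was kept with a mean of at least 50, from 0.17 to -0.12. With 2 libraries a group, a library that stands apart from its group cannot be identified.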

Other observations

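Among neighbouring coding genes that moved together by at least 1, 5 genes of the UGT1A cluster and their neighbour MROH2A on chromosome 2 (233617633 to 233833423) fell in a run of 6 genes, with log2 fold changes from -4.31 to -1.84. The UGT1A genes share their last exons, so reads can be split between them. A run of 5 genes on chromosome 20 (45091214 to 45376798) rose by 1.22 to 2.54, among them PI3 and SLPI, which code for inhibitors of neutrophil proteases.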
